A study of Capra hircus with 4 samples.

Results

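Barcodes of the goat pancreas that carried the alarmin transcripts S100A8 and S100A9 together with receptor or lectin genes of circulating myeloid cells were examined, under the working label of neutrophils and inflammatory monocytes. A barcode was a member when it held at least 3000 unique molecular identifiers (UMIs, each counting 1 captured transcript) and at least 500 genes. It also needed at least 10 UMIs of S100A8 and S100A9 together, at least 1 of CSF3R, CXCR2 and FCN1, and at least 2 of the leukocyte genes PTPRC, CORO1A, LAPTM5 and CD53. C1QA, C1QB and C1QC together had to stay below 5 UMIs, INS and PPY each below 3% of UMIs, and the acinar genes PRSS2, CLPS and SYCN together below 5%. The members were thus chosen by their measured levels of these genes, which are given below as a description. Of 17982 barcodes over the UMI and gene minimum, 405 were members.

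The samples were pancreases of 4 female Liuyang black goats, 2 aged 6 months, at the ruminating stage, and 2 aged 10 days, before rumination. The labels give no treatment beyond age, and call the goats twins. Minced tissue was taken apart with enzymes, red cells were lysed and dead cells removed before droplet capture by 10x Genomics 3' chemistry. Barcodes carry a library number from 1 to 4 that no label ties to an animal, so no library was given an age, the ages were not compared, and every value stands per library with no test and no p-value. The 4 libraries summed to between 43297855 and 82817057 UMIs. Barcode sequences shared between libraries numbered 34, of which 3 included a member and 0 were members in both.

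S100A8 and S100A9 form calprotectin, a calcium- and metal-binding protein stored in large amounts by neutrophils and classical monocytes. Neutrophils are short-lived granulocytes that follow chemokines through CXCR1 and CXCR2, depend on the growth factor receptor CSF3R and hold little RNA. Classical monocytes are blood precursors of macrophages and express CD14, VCAN, FCN1 and CSF1R. Both cell types enter tissue during inflammation, and blood left in the organ also holds them. Resident macrophages of many tissues express the complement genes C1QA, C1QB and C1QC, the scavenger receptor MRC1 and CSF1R.

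Members were concentrated in library 4. It held 363 members among 3329 barcodes (10.9%, exact Clopper-Pearson 95% interval 9.87 to 12.0%). The share was 0.718% in library 1 (23 of 3203, 0.456 to 1.08%) and 0.331% in library 3 (16 of 4832, 0.189 to 0.537%). It was lowest in library 2, where 3 of 6618 barcodes were members (0.0453%, 0.00935 to 0.132%). Among leukocyte barcodes, those with at least 2 of the 4 leukocyte genes under the same hormone and enzyme limits, members made up 37.7% of the 964 of library 4. The corresponding shares were 11.6% of 138 for library 3, 7.67% of 300 for library 1 and 3.23% of 93 for library 2. The interval of library 4, 34.6 to 40.8%, did not overlap those of the other libraries, which ran from 0.670 to 18.1% in all. These intervals cover counting error only, and whether the gap reflects age, animal, blood left in the tissue or the handling of that library cannot be told apart.

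**Figure D1:**
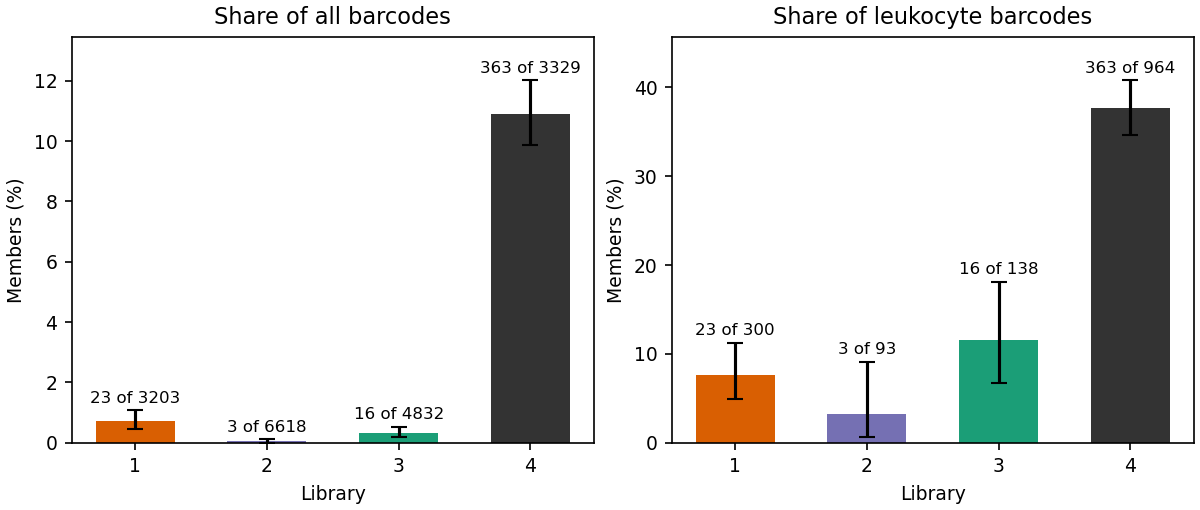
Members as a percentage of all barcodes over the UMI and gene minimum (left) and of leukocyte barcodes (right) in each library. Bars start at 0, whiskers are exact 95% binomial intervals and the counts stand above them. Library 4, at 10.9% and 37.7%, stands above the other 3 libraries in both panels.

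The median member held 8254 UMIs and 2527 genes in library 4, 5196.5 UMIs and 2007 genes in library 3, 8614 and 2620 in library 2, and 6571 and 2117 in library 1. The S100 requirement alone left 516 barcodes, the limit on C1Q took the number to 455 and the hormone limits to 412. At the S100 threshold, 32 library 4 members had 10 to 14 UMIs of S100A8 and S100A9, and 38 barcodes that met every other criterion had 5 to 9. At the UMI threshold, 15 members of that library lay within 500 UMIs above it, and 28 barcodes that met every other criterion lay within 500 UMIs below it. The median member of library 4 had 55 S100A8 and S100A9 UMIs and the highest 453, so few members lay near the S100 threshold.

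The 7 marker genes of the label were all detected in the members of every library. S100A8 reached 4481, 3672, 6735 and 5108 counts per 1000000 UMIs (CPM, from the summed counts of a class) in members of libraries 1 to 4, against 3.72, 0.207, 2.64 and 75.7 CPM in all other barcodes. S100A9 stood at 4176, 6039, 7957 and 4556 CPM in members, against 3.24, 0.845, 3.33 and 92.3 CPM in the others. The gap between members and other barcodes follows from the rule, and library 4 stood above the other libraries outside the members too. In that library 18.5% of the other barcodes had an S100A8 UMI, and barcodes of 10 to 100 UMIs, which hold mostly free RNA, carried S100A8 at 215 CPM.

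FCN1, a ficolin that recognises microbial sugars and is made by monocytes, was found in 23 of 23, 3 of 3, 16 of 16 and 347 of 363 members of libraries 1 to 4. Its level was 6652, 5549, 5278 and 3430 CPM. CSF3R was found in 17, 2, 6 and 273 of these members and CXCR2, the receptor for CXCL8-type chemokines, in 5, 1, 4 and 165. CXCR2 reached 67.2, 40.8, 44.8 and 134 CPM. All members without FCN1, 16 in number, lay in library 4, and 11 of them were among the members rich in collagen transcripts described last. The planned comparison of members with CXCR2 or CSF3R but no FCN1 against members with FCN1 alone was not made, since these groups held 0, 0, 0 and 16 against 6, 1, 8 and 68 barcodes and no library had 20 of each.

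The remaining label markers, OSM and AREG, were higher in members. The rule did not use them, but the label markers were chosen with earlier results of these data known, so their levels are a description. OSM, a cytokine of the IL6 family that acts on stromal and epithelial cells, had 465, 326, 336 and 884 CPM in members, against 1.58, 0.207, 0.670 and 28.4 CPM in other barcodes. AREG, a ligand of the EGF receptor, had 550, 816, 280 and 1126 CPM in members, against 2.31, 2.62, 2.11 and 26.1 CPM. The members' levels did not overlap those of the other barcodes for either gene. Within library 4 the median member had 8.05 OSM and 7.47 AREG UMIs per 10000, with highest values of 45.3 and 106. OSM was detected in 91.2% of library 4 members, or 80.2% with each cell thinned to 3000 UMIs, and AREG in 80.4%, or 71.3% thinned. In the other barcodes of that library, which lie mostly outside the immune cells, OSM was detected in 10.9% and AREG in 8.73%, at a median of 8254 UMIs in members and 7614.5 in the others. Free RNA of library 4 carried OSM at 66.6 CPM and AREG at 31.0 CPM, above the other barcodes.

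**Figure D2:**
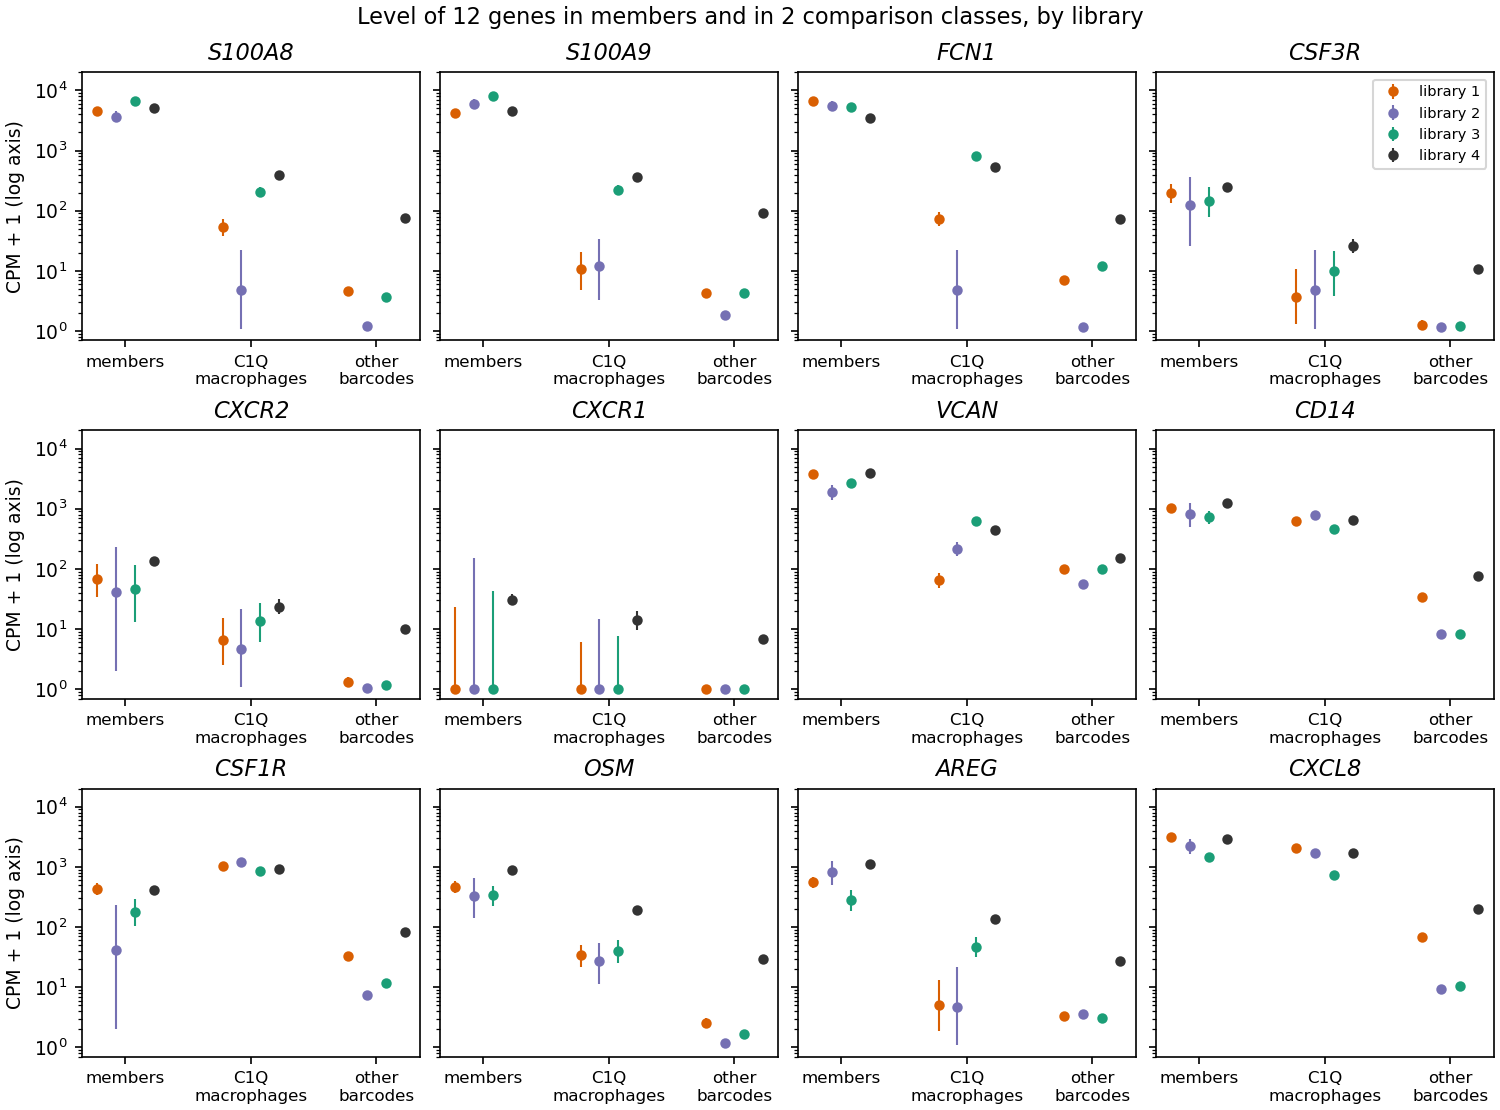
Level of 12 genes as CPM + 1 on a log axis in members (left), C1Q macrophages (middle) and all other barcodes (right), with 1 point per library and exact 95% Poisson intervals that cover counting error only. S100A8, S100A9, FCN1, VCAN, OSM and AREG are highest in members of every library, CSF1R is highest in C1Q macrophages, and CXCR1 is at 0 in libraries 1 to 3.

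Of the neutrophil markers, CXCR1, MMP9, MGAM and IL1R2 were low or at 0 in members, while the summed list was above its level in C1Q macrophages. CXCR1, the second receptor for CXCL8, had 0 UMIs in the members of libraries 1, 2 and 3, where 3 counts would be 18.3, 122 and 33.6 CPM, and 29.9 CPM in library 4. The gelatinase gene MMP9 was at 6.11, 0, 0 and 11.4 CPM, the maltase gene MGAM at 0, 0, 0 and 2.02 CPM and the decoy receptor IL1R2 at 12.2, 0, 0 and 4.71 CPM. G0S2 and TREM1, which monocytes also express, made up much of the summed neutrophil list. That list of 12 markers, 10 of them matched, summed to 1755, 1918, 1109 and 2668 CPM in members, and the monocyte list, with 8 of 10 matched, to 14679, 9711, 11207 and 11816 CPM. The monocyte list includes the rule gene FCN1, which alone gave 6652, 5549 and 5278 CPM in libraries 1 to 3, with library 4 given above. The neutrophil list includes the rule genes CXCR2 and CSF3R, so neither sum is independent of the rule. In C1Q macrophages the neutrophil list summed to 174, 315, 132 and 572 CPM and the monocyte list to 5726, 5632, 5816 and 6386 CPM. Both lists were thus higher in members in each library. The macrophage list includes the C1Q genes, which the rule limits. Macrophage markers, 7 of 9 matched, summed to 122, 41, 134 and 115 CPM with FOLR2 at 0. All 6 mast cell and basophil markers were at 0 in every library. T and NK markers summed to 141, 0, 90 and 133 CPM, beta cell markers to 245, 408, 1367 and 750 CPM and acinar markers to 5270, 1346, 2376 and 756 CPM. The part of this non-myeloid RNA in the results was not tested.

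Among monocyte genes that the rule did not use, VCAN was far above its level in C1Q macrophages, CD14 above it without being called, and CSF1R below it. VCAN, a matrix proteoglycan made by classical monocytes, had 3729, 1877, 2723 and 3988 CPM in members, against 64.5, 217, 633 and 444 CPM in C1Q macrophages. CD14, the co-receptor for bacterial lipopolysaccharide, had 1027, 816, 717 and 1246 CPM, against 626, 779, 463 and 638 CPM in C1Q macrophages. VCAN was called higher in members by the rule given below, whereas CD14 was higher in each library but not called. CSF1R, the receptor for the macrophage growth factor, had 434, 40.8, 179 and 415 CPM in members, against 1040, 1195, 856 and 938 CPM in C1Q macrophages, with no overlap. In 370 of 405 members the UMIs of VCAN, CD14 and CSF1R together outnumbered those of CXCR1, CXCR2, CSF3R and MXD1, and the 35 exceptions were all in library 4. Each UMI counts a transcript by its 3' end, so no scaling by length was applied. These 2 sets of genes were chosen after their values were seen, and the barcodes are therefore called by their rule, S100A8/S100A9 members, rather than by a cell type.

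The nearest class in the data was the C1Q macrophages, barcodes of the same size and leukocyte criteria with at least 5 UMIs of C1QA, C1QB and C1QC. There were 125, 54, 85 and 273 of them in libraries 1 to 4, and their 7 matched macrophage markers summed to 14081 to 21762 CPM. That list includes C1QA, C1QB and C1QC, which define the class, so its sum is a description. A gene was called when its log2 ratio of CPM + 1 reached 1 or -1 with the same sign in libraries 1 and 4, the 2 libraries with at least 20 of both classes, and when the higher class had at least 20 counts in each. Of 4865 genes measured, 108 were called higher in members (2.22%) and 442 lower (9.09%), with a median log2 ratio of -0.18 over all genes. Library 4 alone gave 619 higher and 1160 lower, and library 1 alone 213 and 1110. Of the C1Q macrophages, 1, 0, 5 and 36 also had at least 10 S100A8 and S100A9 UMIs.

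Among secreted factors, measured ligands of the EGF receptor and of the IL6 receptor family were higher in members. All 3 measured genes of that list, AREG, OSM and HBEGF, were called higher, with a median log2 ratio of 2.99. AREG and OSM are label markers, chosen with earlier results of these data known, so their calls are a description. HBEGF was the only measured gene of the list that the label did not name. AREG had a median ratio of 4.91 (3.07 to 6.75 over the libraries) and OSM of 2.99 (2.20 to 3.78). HBEGF, another EGF receptor ligand, had 251, 81.6, 134 and 582 CPM in members, against 45.3, 44.9, 33.9 and 166 CPM in C1Q macrophages. Members were above C1Q macrophages in each library for all 3 genes, while the range over libraries was wide within each class. In library 2, with 3 members, the HBEGF level of members lay below the 122 CPM that 3 counts would give.

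Of 12 measured cytokine and chemokine genes, 1 was called higher and 3 lower. IL1B, the processed inflammatory interleukin, had 141, 81.6, 78.4 and 147 CPM in members, against 6.86, 18.7, 14.3 and 39.0 CPM in C1Q macrophages. IL10, which restrains inflammation, had 24.5, 0, 22.4 and 33.6 CPM in members, against 220, 247, 69.5 and 138 CPM. CXCL10, an interferon-induced chemokine for lymphocytes, and CXCL16 were also lower, at median ratios of -3.09 and -2.91. CXCL8, the main neutrophil chemokine, was abundant in both, at 3155, 2203, 1457 and 2903 CPM in members and 2065, 1681, 724 and 1687 CPM in C1Q macrophages, and was not called. TNF reached 67.2, 245, 33.6 and 65.3 CPM in members, and IL6 was at 0 in libraries 1 to 3 and 1.68 CPM in library 4.

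Granule genes were mixed, with 2 of 5 measured called higher and 2 lower. PGLYRP1, a peptidoglycan-binding granule protein, had 624, 1020, 359 and 514 CPM in members, against 0, 0, 1.78 and 19.0 CPM in C1Q macrophages, where 3 counts would be 4.12 CPM in library 1 and 11.2 CPM in library 2. Its level was uneven among members. The median member had 0 PGLYRP1 UMIs per 10000 in library 1 (upper quartile 1.57, highest 71.2) and 1.04 in library 4 (upper quartile 6.43, highest 178). The summed level of library 1 thus rested on few members. BPI, which binds and kills Gram-negative bacteria, had 1247, 367, 448 and 535 CPM in members, against 174, 44.9, 99.8 and 222 CPM. MPO, the peroxidase of primary granules, was at 0 in members of all libraries, and LTF, of secondary granules, was at 91.7, 0, 44.8 and 50.1 CPM. ELANE, the primary granule elastase, was lower in members, at 24.5, 0, 0 and 12.8 CPM, against 79.6, 112, 41.0 and 90.4 CPM in C1Q macrophages. NCF4, a subunit of the NADPH oxidase that makes the oxidative burst, was called higher at a median ratio of 1.55.

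Among receptor genes, TREM1 was called higher and C3AR1 lower. TREM1, an amplifier of inflammatory signals, had 122, 81.6, 134 and 130 CPM in members, against 17.8, 7.49, 24.95 and 26.4 CPM in C1Q macrophages. C3AR1, the complement C3a receptor, had 6.11, 0, 11.2 and 3.70 CPM in members, against 141, 97.4, 171 and 151 CPM. Among 9 pattern recognition genes TLR2 and CLEC5A were higher, at 1.38 and 1.29, and the beta-glucan receptor CLEC7A lower, at -2.43. None of 23 measured actin and migration genes was called, although 19 of 23 were called higher over all other cells.

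Several hypoxia and glycolysis genes were called higher. Of 10 measured, 6 were called higher, 0 lower and 4 not called, against 2.22% of all measured genes called higher. Their median log2 ratio was 1.20, against -0.18 over all genes. The hypoxia factor HIF1A had a median ratio of 1.23, the hexokinase HK3 of 1.80, PGK1 of 1.04, ENO1 of 1.18, ALDOA of 1.33 and the pyruvate kinase PKM of 1.53. PKM had 721, 1836, 2253 and 980 CPM in members, against 218, 251, 667 and 385 CPM in C1Q macrophages. PGK1 lay at the threshold in library 4. Of 15 NF-kB targets, SOD2 and G0S2 were higher, at 1.74 and 2.84, although in library 2 SOD2 was lower in members, at 490 CPM against 1180 CPM. In the same list NFKBIA, the inhibitor of NF-kB, had 5643, 3101, 3205 and 3629 CPM in members without being called.

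Several macrophage genes were lower, whereas most antigen presentation genes were not called. Of 20 measured monocyte and macrophage genes, 2 were called higher and 9 lower. The higher ones were VCAN at 4.50 and THBS1, a matrix glycoprotein, at 5.54. MRC1, a mannose receptor of tissue macrophages, had 55.0, 40.8, 22.4 and 57.5 CPM in members, against 878, 1296, 1189 and 685 CPM in C1Q macrophages. SPP1, osteopontin, had 0, 0, 0 and 0.336 CPM, against 38.4, 569, 1007 and 64.5 CPM. CSF1R, CX3CR1, CTSB, CD68, LGMN, TREM2 and IRF8 were the other lower genes. Of 13 measured MHC class II and antigen presentation genes, 3 were lower, 0 higher and 10 not called, with a median log2 ratio of 0.21 against -0.18 over all genes. CD74, the class II invariant chain, had 2488, 1346, 482 and 2042 CPM in members, against 11413, 6969, 3084 and 10710 CPM in C1Q macrophages. CD40, a costimulatory receptor, and CIITA, the class II regulator, were lower at median ratios of -4.18 and -1.67.

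Transcription factors and interferon targets differed in few genes. NFE2, a factor of granulocyte and platelet lineages, had 196, 204, 67.2 and 96.6 CPM in members, against 2.74, 0, 1.78 and 12.5 CPM in C1Q macrophages. CEBPD was higher at 1.28 and CEBPA lower at -1.50, among 10 measured. Of 12 interferon response genes only IFI6 was called, lower at -2.93. Of 19 immediate early genes, which stress of dissociation induces, FOSL2 was higher and JUN, EGR2, EGR3 and KLF6 were lower.

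**Figure D3:**
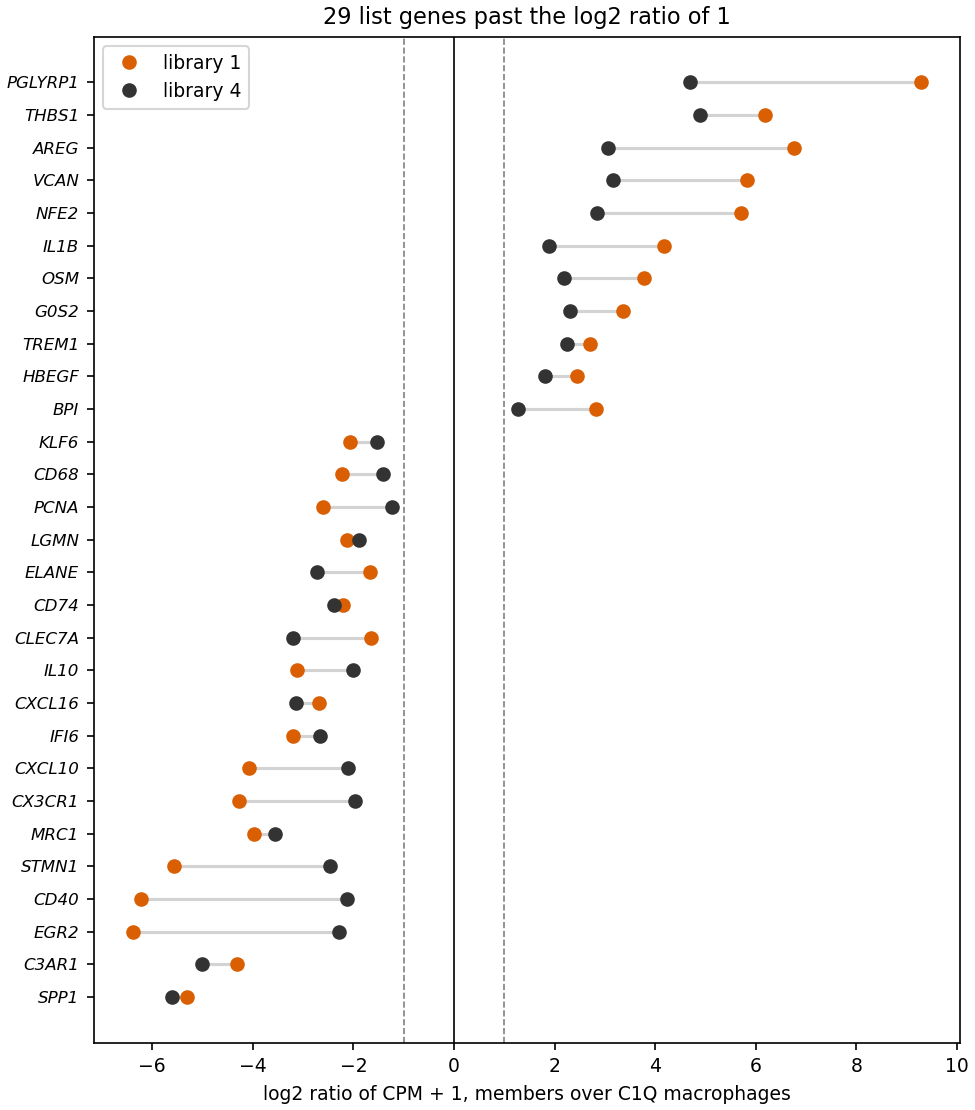
Log2 ratio of CPM + 1 in members over C1Q macrophages for 29 of the 30 called list genes of highest absolute median ratio, in library 1 and library 4. Dashed lines mark 1 and -1. PGLYRP1 (6.99) and THBS1 (5.54) lead the higher genes, SPP1 (-5.46) and C3AR1 (-4.67) the lower ones, with the same sign in both libraries as the call rule requires.

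Outside the lists, 12 higher and 12 lower genes were named by median ratio. LOC102169149, which has no gene name, was the highest at 5.77 and ranked among the 20 most abundant genes of the members of all 4 libraries. CSF3, the granulocyte growth factor, had 159 CPM in library 1 members and 128 CPM in library 4 members, against 0 and 9.74 CPM in C1Q macrophages. PTX3, a secreted pattern recognition protein, had 257 and 189 CPM, against 1.37 and 14.8 CPM, and the hormone gene RETN 330 and 104 CPM, against 10.975 and 18.5 CPM. The thrombin receptor THBD had 232 and 190 CPM, against 8.23 and 32.0 CPM. MEFV, the pyrin inflammasome gene, had 941 and 923 CPM, against 48.0 and 190 CPM. Members had no UMI of RAMP1 in either library, against 268 and 238 CPM in C1Q macrophages, so that it was at least 14.6-fold lower in library 1 and at least 236-fold lower in library 4, with 3 counts per library as the floor. The phagocytic receptor gene TIMD4 had 0 and 2.02 CPM in members, against 287 and 135 CPM, and SIGLEC1 0 and 0.673 CPM, against 68.6 and 261 CPM.

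Over all other barcodes, 524 of 14058 measured genes were called higher (3.73%) and 3627 lower (25.8%), at a median log2 ratio of -0.50. A lower call needed 20 counts in the other barcodes only, whereas 3 counts in library 1 members would be 18.3 CPM. With a pseudocount of 10 CPM, 506 genes were higher and 1115 lower, so most lower calls rested on genes of low level. Library 4 alone gave 1958 higher genes, and library 1 alone 6155 lower ones. The lists held 97 of the higher genes. Actin and migration genes gave 19, and monocyte and macrophage genes 10 of 23 measured. Of 18 measured receptor genes 10 were higher, of 19 NF-kB targets 10, of 13 antigen presentation genes 8 and of 18 cytokines 5, with 0 lower in each of these lists. C5AR1, the receptor for complement C5a, had a median ratio of 5.03 and TYROBP, an adaptor of myeloid receptors, of 4.60. The lowest genes were endocrine, including TTR at -7.81, SCG3 at -7.62 and PCSK1N at -6.96, and the rule itself limited the hormone genes INS and PPY.

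T and NK lymphocytes, barcodes with at least 2 of CD3D, CD3E, CD3G, CD247 and CD2, offered a second immune class with 95 barcodes in library 1 and 143 in library 4. Of 3535 measured genes, 369 were higher in members (10.4%) and 456 lower (12.9%), at a median log2 ratio of -0.25. Library 4 alone gave 1777 higher and 931 lower, and library 1 alone 467 and 964. Of 13 measured monocyte and macrophage genes 12 were higher and 0 lower, and of 7 proliferation genes 6 were lower. This lymphocyte class carried stellate cell markers at 2549 CPM in library 1 and 10774 CPM in library 4, against 1027 and 5699 CPM in members, and B or plasma cell markers at 5994 CPM in library 1, against 0 CPM in members. Their part in these counts was not tested.

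Below the UMI minimum, library 4 held a second and larger set of S100A8/S100A9 barcodes. With the minimum at 1000 UMIs and every other criterion kept, 821 barcodes of 1000 to under 2000 UMIs met the other criteria in library 4, against 3, 0 and 1 in libraries 1, 2 and 3. The median of these shallow barcodes was 1264 UMIs and 610 genes. They had more of the neutrophil receptor genes and less of the monocyte genes than members. CXCR1 stood at 29.9 CPM in members of library 4, against 1055 CPM in shallow barcodes, and CXCR2 at 134 CPM, against 1471 CPM. CSF3R had 249 CPM, against 1390 CPM, and MXD1, a MYC antagonist expressed in mature granulocytes, 107 CPM, against 1783 CPM. VCAN had 3988 CPM in members, against 185 CPM, and CD74 2042 CPM, against 97.4 CPM. With each barcode thinned to 1000 UMIs, CXCR1 was detected in 4.13% of members and 60.2% of shallow barcodes, and VCAN in 84.8% of members and 4.38% of shallow barcodes, so the contrasts of these 2 genes, which the rule did not use, remained at equal depth. CXCR2 and CSF3R are rule genes, so the choice of shallow barcodes bears on their levels.

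The change with depth was steep in library 4. The median sum of CXCR1, CXCR2, CSF3R and MXD1 was 56.1 UMIs per 10000 from 1000 UMIs, 39.9 from 2000, 9.52 from 3000, 4.65 from 5000 and 2.45 from 10000. The median sum of VCAN, CD14 and CSF1R was 0, 9.67, 54.9, 61.4 and 54.4 over the same steps. The 4 neutrophil genes outnumbered the 3 monocyte genes in 93.5%, 58.4%, 15.5%, 8.52% and 6.80% of barcodes, of 821, 77, 84, 176 and 103. The fixed minimum of 10 S100A8 and S100A9 UMIs asks for a higher share in shallow barcodes, and the median S100A8 and S100A9 level fell with depth too, at 201, 194, 109, 75.3 and 53.4 UMIs per 10000 over the same steps. CXCR2 and CSF3R are also rule genes, and both were higher in members with the upper S100A8 and S100A9 shares. The part of this selection in the trend was not tested.

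**Figure D4:**
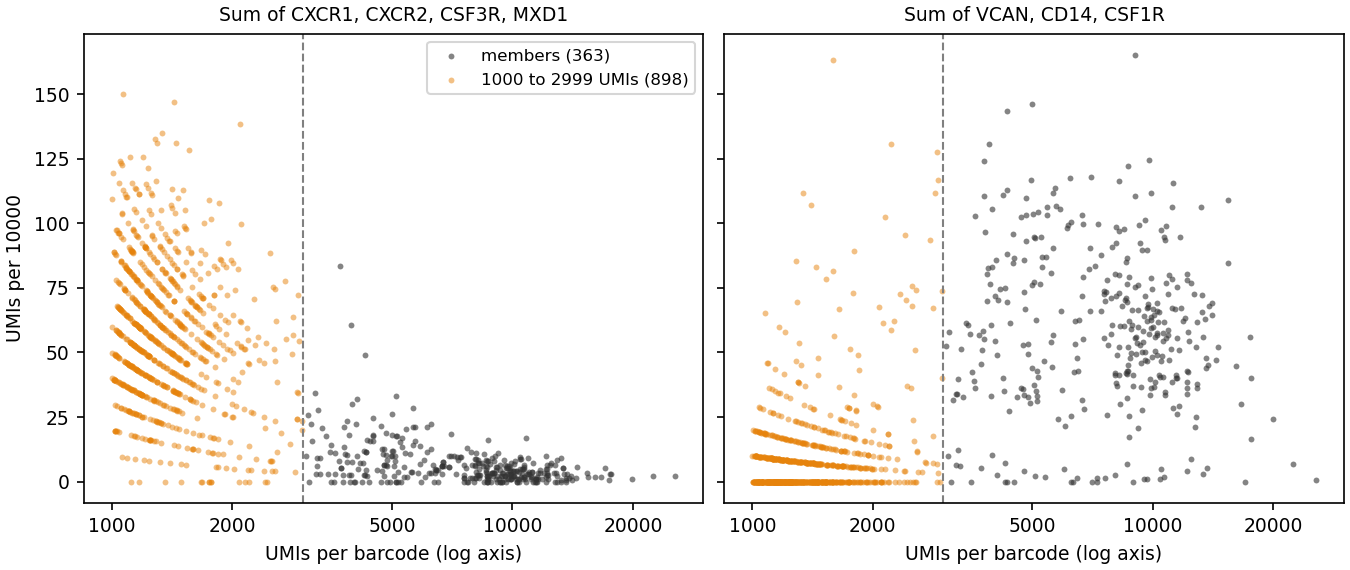
UMIs per 10000 of 4 neutrophil genes (left) and 3 monocyte genes (right) against UMIs per barcode (log axis) in library 4, for members (dark) and for barcodes of 1000 to under 3000 UMIs that met every other criterion (orange). The dashed line marks 3000 UMIs. The median of the left sum is 56.1 in the shallowest step and 2.45 in the deepest, and that of the right sum is 0 and 54.4.

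Across all genes, 4353 of 8590 were called higher in members than in shallow barcodes (50.7%) and 1110 lower (12.9%). The median log2 ratio was 1.04, and after centring on it 2566 were higher and 2348 lower. Interferon response genes were lower in members in 11 of 14 cases and higher in 0, with a median of -2.07. IFIT2, an interferon-induced translation inhibitor, had 129 CPM in members, against 3000 CPM in shallow barcodes, ISG15 616 CPM, against 5211 CPM, and RSAD2 95.6 CPM, against 1415 CPM. Of 21 monocyte and macrophage genes 17 were higher in members and 0 lower, and of 20 receptor genes 3 were higher and 11 lower. OSM, at 884 CPM in members against 1141 CPM, and AREG, at 1126 CPM against 665 CPM, were not called. Shallow barcodes also held more of the transcript that dominates free RNA. LOC108634769, which made up 70.4% of UMIs in barcodes of 10 to 100 UMIs of library 4, took 1.85% of UMIs in members and 9.27% in shallow barcodes. Free RNA carried CXCR1 at 50.5 CPM and CXCR2 at 36.7 CPM, below their levels in shallow barcodes. The part of free RNA in the other differences was not tested.

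Members also varied among themselves. Members of library 4 other than those rich in collagen transcripts were split at the median S100A8 and S100A9 share into 167 with the upper and 166 with the lower shares. Of 6423 measured genes, 107 were called higher in the upper group (1.67%) and 275 lower (4.28%), counting S100A8 and S100A9, which set the split. Of 8 measured granule genes 3 were higher in the upper group and 0 lower, with a median log2 ratio of 0.16, and of 17 receptor genes only CXCR1 was called, higher, with a median of 0.21. CXCR2 and CSF3R belong to the rule. PGLYRP1 had 1030 CPM in the upper group, against 153 CPM in the lower, LTF 105 CPM, against 13.4 CPM, and CXCR2 228 CPM, against 52.9 CPM. CSF3R had 397 CPM, against 159 CPM, CXCR1 34.2 CPM, against 14.1 CPM, and NFE2 155 CPM, against 50.8 CPM. MRC1, at 10.6 CPM in the upper and 111 CPM in the lower group, and CX3CR1, at 21.2 and 96.7 CPM, ran the other way, as did the prostaglandin synthase PTGS2, at 736.5 and 1549 CPM, and the integrin ITGA4, at 205 and 515 CPM. FCN1, VCAN, CD14, OSM and AREG were not called. In library 1, split into 12 and 11 members, CXCR2 had 146 CPM in the upper and 10.5 CPM in the lower group, and PGLYRP1 1449 and 31.5 CPM. All members of library 1 together held 11 CXCR2 UMIs, below the minimum of 20 counts for a call. They held 102 PGLYRP1 UMIs, spread unevenly, with a median of 0, an upper quartile of 1.57 and a highest value of 71.2 per 10000. The library 1 values thus rested on few UMIs or few members. In library 3, with 8 members each, CXCR2 had 42.4 and 47.6 CPM, and PGLYRP1 509 and 190 CPM. The upper group was shallower in library 4, with a median of 7169 UMIs, against 8716.5 in the lower.

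**Figure D5:**
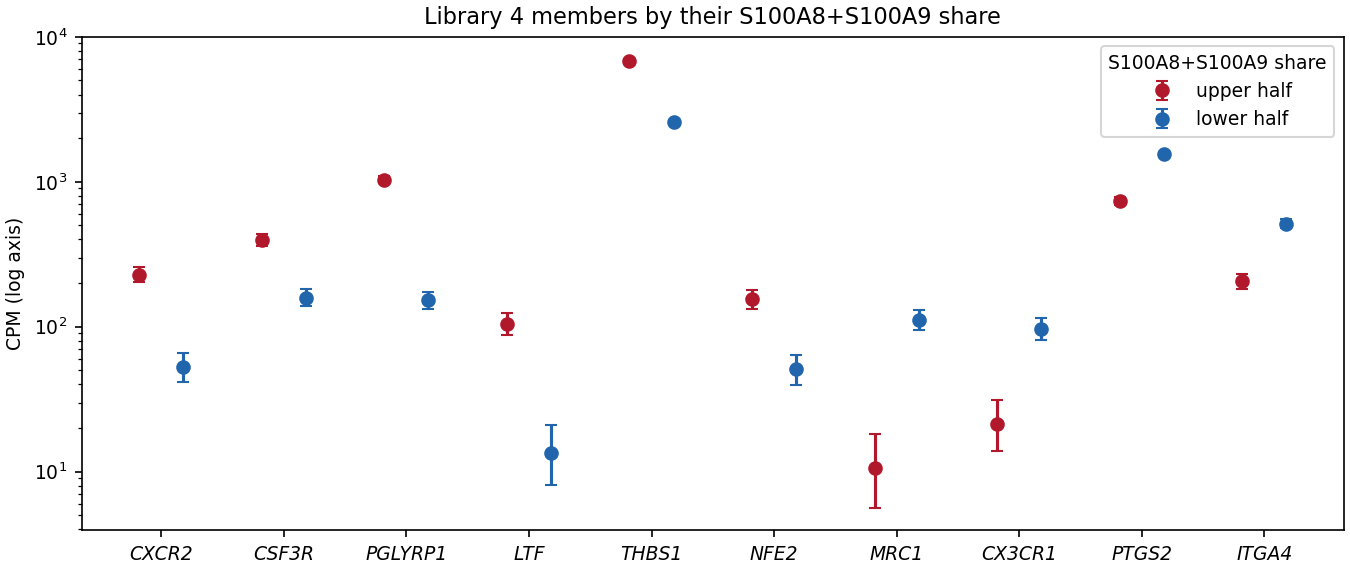
CPM (log axis) of 10 genes in library 4 members with the upper (red, left) and lower (blue, right) S100A8 and S100A9 shares, with exact 95% Poisson intervals that cover counting error only. CXCR2 (228 against 52.9 CPM) and PGLYRP1 (1030 against 153 CPM) are higher in the upper group, MRC1 (10.6 against 111 CPM) in the lower.

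Among the members, 30, all in library 4, took at least 1% of their UMIs from the collagen and stromal genes COL1A1, COL1A2, COL3A1, DCN and LUM. COL1A1 stood at 13180 CPM in them, against 36.3 CPM in the other members of the library, and S100A8 at 1188 CPM, against 5594 CPM. FCN1 had 834 CPM, against 3751 CPM, and AREG 125 CPM, against 1250 CPM, whereas CXCR2 had 128 CPM, against 134 CPM. Of these 30, 18 were among the 35 members in which the 4 neutrophil genes outnumbered the 3 monocyte genes, and 10 were in the top 5% of doublet scores, against 16 of all 363 members of the library. Of 8033 measured genes 762 were higher in them (9.49%) and 1798 lower (22.4%). Leaving out both the members and the C1Q macrophages of at least 1% collagen genes gave 119 higher and 481 lower genes in that comparison.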

How the data were processed

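Droplet single-cell RNA was measured in 4 goat pancreas samples. The deposited values are raw UMI counts per gene and barcode in 1 matrix of 27137 genes and 27179520 barcodes, and per the file headers the software was Cell Ranger 5.0.1. The submitters' processing notes name bcl2fastq 5.01, Cell Ranger 3.1.0 and Seurat 3.1.1. For the genome build, the gene models and whether libraries were thinned when joined, the entry is: not given in the sources used here. Gene symbols are those of the deposited feature list, of which 27103 matched the RefSeq table.

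Counts were summed per class and library, scaled to CPM and compared as log2(CPM + 1), which understates differences of low genes. With libraries not tied to samples, the planned edgeR test of age was not run and no test was made. Intervals are exact at 95%. The members, the 18 lists (277 of 313 genes matched), the markers (103 of 118 matched) and the alternatives were chosen with earlier results of these data known. Named were all label markers and rule genes, the 30 called list genes of highest absolute median ratio per comparison, and the 12 highest and 12 lowest called genes outside the lists. Some genes of these lists are not reported here. Any further gene was picked with its values in view. The comparison with shallow barcodes, the split by S100A8 and S100A9 share and the collagen criterion were also added after seeing the data. The call rule was tested on simulated data. Only genes with ample expected counts in both classes were changed there, so the recovery of low genes was not covered. Scrublet (scanpy 1.11.5) gave doublet scores within each library, on barcodes of at least 2000 UMIs, and no barcode was removed. Its own threshold marked 43, 263, 113 and 2 barcodes of libraries 1 to 4. Whether it missed doublets in library 4 was not tested, and leaving out the top 5% of scores in each library was the alternative tried. Free RNA was read from barcodes of 10 to 100 UMIs and was not subtracted.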

Additional observations from a re-analysis of the deposited data

Results flagged for a closer look

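In library 4, 43 barcodes met every criterion for members except the limits on INS and PPY. They were counted among all other barcodes above, and were in neither the members, the C1Q macrophages nor the T and NK lymphocytes. Libraries 1, 2 and 3 had 0 such barcodes, which by a limit of 3 counts allows a share of up to 0.0937%, 0.0453% and 0.0621% of their barcodes. INS passed 3% of UMIs in 38 of them and PPY in 14, and INS made up a median of 26.5% of their UMIs (0.0214 to 47.4%). Their median size was 6509 UMIs, against 8254 in members of that library. They carried a median of 18 S100A8 and S100A9 UMIs (10 to 170), FCN1 was found in 32 of them and CXCR2 or CSF3R in 30. The top 5% of doublet scores held 12 of them. No cause was tested.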

How the results depend on the processing

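Member numbers moved most with the UMI minimum: library 2 had 5 members at 1000 or at 2000 UMIs, library 3 had 9 at 5000, and library 4 had 1261 at 1000. With no minimum of counts, 401 genes were higher and 1374 lower over C1Q macrophages, 1657 higher over all other cells, and 1404 higher and 1963 lower over T and NK lymphocytes. At 5000 UMIs, where library 1 dropped out with under 20 members, these were 639 and 1054, 2000 higher, and 1760 and 766. A pseudocount of 10 CPM gave 1115 lower over all other cells. Leaving out library 1 or 4 gave 213 to 619 higher and 1110 to 1160 lower over C1Q macrophages, 631 to 1958 and 4523 to 6155 over all other cells, and 467 to 1777 and 931 to 964 over T and NK lymphocytes, since fewer libraries must then share a call. For members over shallow barcodes, the pseudocount of 10 CPM gave 2717 higher, no minimum 6631 and 1691, and centring 2566 and 2348. For the split by S100A8 and S100A9 share, that pseudocount gave 50 and 120, and no minimum 656 and 1515. Without the top 5% of doublet scores PRG4 and C4BPA turned to 0.61 and 1.40 in that split, as did no other named gene under any alternative. Of the 781 values of named genes over C1Q macrophages under alternatives, 771 kept their call, 2 lost it and 8 gained it. Of the 372 such values in the split by S100A8 and S100A9 share, 347 kept it, 20 lost it, 3 gained it and 2 reversed. No paired analysis was possible because the columns carry no replicate number and no test was run. Values at or below 3 counts per class and library are not detectable at this depth.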

Other observations

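Transcripts of the cycling genes MKI67 and TOP2A were seen in few members. In library 3, MKI67 was found in 3 of 16 members and TOP2A in 2, with 258 CPM of MKI67. In library 4, MKI67 was found in 6 of 363 members and TOP2A in 2, with 9.76 CPM of MKI67, and libraries 1 and 2 had 0 members with either gene. Of the library 4 UMIs, 24 of 29 for MKI67 and 48 of 49 for TOP2A lay in the 30 members rich in collagen transcripts, of which 10 were in the top 5% of doublet scores. With at least 2 of 4 cycling genes there were 2 members in library 3 and 1 in library 4. Single barcodes can set a summed level. KRT19, an epithelial and mesothelial keratin, was found in 2 members of library 4, and 1 of them held 127 of its UMIs.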
